A study of Mus musculus with 36 samples.

Results

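Acyl-CoA synthetases join fatty acids to coenzyme A, which is the step that makes a fatty acid usable for oxidation, storage, membrane synthesis or conjugation. Described here were 10 such genes measured in mouse liver: *Acsm1*, *Acsm2*, *Acsm3* and *Acsm5* for medium-chain acids, *Acsl1*, *Acsl3*, *Acsl4* and *Acsl5* for long-chain acids, and *Acss2* and *Acss3* for short-chain acids. They were chosen by name, as the rows of the count table whose gene name equalled 1 of these 10 symbols, out of 54532 genes. All 10 were among the 17994 genes with a summed count of at least 100 that entered the tests.

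The data were bulk RNA-seq of livers from 36 male mice aged 2 to 3 months, given chow ad libitum under 12 h of light and 12 h of darkness at 22 °C. The 18 control mice were THRB+/- (called THRB WT) and the 18 knockout mice were THRB-/- (THRB KO, both isoforms of thyroid hormone receptor beta lost, strain B6.129S1-Thrbtm1Df/J on a C57Bl/6NCrl background). Livers were taken from 3 mice per genotype at ZT2, ZT6, ZT10, ZT14, ZT18 and ZT22, where ZT is the number of hours after lights on, and the mice of each group of 3 carried the letters a, b and c. The controls thus also carried a single copy of the altered allele, and the knockout was systemic, so that loss of the receptor in liver and in other organs cannot be told apart.

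Medium-chain synthetases sit in the mitochondrial matrix, where their products feed beta-oxidation and, for benzoate and related acids, glycine conjugation. Long-chain synthetases are membrane proteins of the mitochondrial outer membrane, the endoplasmic reticulum and lipid droplets, and are held to direct acyl-CoA towards oxidation or towards triglyceride and phospholipid synthesis. *Acss2* encodes the cytosolic and nuclear enzyme that turns acetate into acetyl-CoA, and *Acss3* a mitochondrial enzyme that prefers propionate. In liver, thyroid hormone acts largely through THRB, a nuclear receptor that binds DNA at repeats of a short hexamer.

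The 36 libraries held 29063273 to 42530551 counts. Their TMM factors, which correct library size for composition, lay between 0.941 and 1.07. *Thrb* itself was counted in every library, with 24.3, 27.9 and 38.5 CPM (counts scaled to equal library size; lowest, median and highest of 18) in THRB WT and 26.2, 31.9 and 37.7 CPM in THRB KO. As reads of *Thrb* were as frequent in THRB KO, this level gave no check of the genotype labels. The 6 hepatocyte markers, led by *Alb*, summed to 61960 to 88110 CPM in THRB WT and 68110 to 92310 CPM in THRB KO.

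Of 39 markers of hepatocytes and 7 other cell types, 32 were tested and 0 passed an adjusted p of 0.05 between genotypes by edgeR or by DESeq2. At an unadjusted p under 0.05, edgeR gave 4 of the 32, where 12.1% of all tested genes passed. These were 2 for hepatocytes and 2 for cholangiocytes, all lower in THRB KO. The hepatocyte markers did not move together. *Ttr* (log2 fold change -0.14) and *Apoa1* (-0.12) were the 2 at this threshold, and *Serpina1c* gave -0.15. *Alb* (0.09), *Cps1* (0.10) and *Hnf4a* (0.01) had the opposite sign. Every cholangiocyte marker had a negative log2 fold change (-0.22 to -0.11), and so had every Kupffer cell marker (-0.57 to -0.05). Endothelial, stellate and lymphocyte markers had mixed signs. None of the 39 was at 0 in every library. The 5 cholangiocyte markers summed to 34.2 to 63.6 CPM in THRB WT and 27.2 to 51.4 CPM in THRB KO. Their part in the differences below was not tested. In bulk tissue, fewer cells of a type and less RNA per cell cannot be told apart.

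The *Acsm* genes lie side by side on chromosome 7 of GRCm38, all on the plus strand, within 268.1 kb. *Acsm5* (chr7:119519463-119545551) is followed after 8.8 kb by *Acsm2* (chr7:119554340-119600690) and after a further 6.3 kb by *Acsm1* (chr7:119607026-119662515). *Acsm4* lies 27.5 kb beyond, and *Acsm3* (chr7:119760923-119787513) closes the row after 46.4 kb. *Acsm4* had 14 counts in all, found in 8 of 36 libraries, so this neighbour was close to silent in liver at this depth. The other members are spread over the genome, with *Acsl1* at chr8:46471037-46536051, *Acsl3* at chr1:78657825-78707743, *Acsl4* at chrX:142317993-142390535, *Acsl5* at chr19:55251938-55297720, *Acss2* at chr2:155517948-155585724 and *Acss3* at chr10:106933517-107123668.

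Coding sequences of the 4 *Acsm* members were 62.1% to 65.3% identical in pairs, those of the *Acsl* members 58.1% to 67.7%, and *Acss2* and *Acss3* were 61.6% identical. The family members were therefore far enough apart for reads to be assigned to 1 of them. No stretch of 50 bases of *Acsm1* or *Acsl4* transcripts occurred in a transcript of another gene, and for *Acsm2* 0.58% did. The libraries were not directional, and exons of a neighbour overlapped some of the others. *Acsm3* shared 34.0% of its 50-base stretches with *Eri2* on the opposite strand, whose count was 7.96% of that of *Acsm3*, and *Acss3* shared 33.4% with *Ppfia2*, whose count was 3.37% of that of *Acss3*. *Gss*, on the strand opposite to *Acss2*, held 33.2% as many counts and shared 395 exonic bases. *Zdhhc6*, opposite to *Acsl5*, shared 404 exonic bases and held 21.6% as many counts, and *Utp14b*, on the same strand as *Acsl3*, shared 244, so levels of these genes could not be fully told apart from their partners.

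Start-site sequences are shown for the *Acsm* row, because it held both members that differed between genotypes (*Acsm1* and *Acsm2*) and a neighbour that was rhythmic in both genotypes (*Acsm5*). Each window ran from 250 bases before to 50 bases after a RefSeq transcript start (GRCm38.p6, plus strand), and 9 of 10 members had at least 1 window, 11 windows in all. Capitals mark matches on either strand to the nuclear receptor hexamer (AGGTCA, or TGACCT when read from the other strand), the E-box of the clock activators (CACGTG), the D-box core of the PAR bZIP factors (TTANNTAA), a sterol element (TCACNCCAC) and CCAAT.
Acsm1, chr7:119617562-119617861: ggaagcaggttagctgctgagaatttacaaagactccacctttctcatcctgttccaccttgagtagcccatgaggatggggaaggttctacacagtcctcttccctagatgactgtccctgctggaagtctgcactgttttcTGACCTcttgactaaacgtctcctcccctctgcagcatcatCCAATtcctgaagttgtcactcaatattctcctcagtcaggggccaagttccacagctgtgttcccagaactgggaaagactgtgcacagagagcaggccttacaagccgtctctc
Acsm2 first start, chr7:119554090-119554389: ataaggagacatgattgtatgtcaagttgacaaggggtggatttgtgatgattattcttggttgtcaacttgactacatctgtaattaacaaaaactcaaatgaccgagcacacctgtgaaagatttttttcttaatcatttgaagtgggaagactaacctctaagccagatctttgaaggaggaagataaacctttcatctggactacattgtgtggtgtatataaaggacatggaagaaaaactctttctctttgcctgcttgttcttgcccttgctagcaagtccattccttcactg
Acsm2 second start, chr7:119561458-119561757: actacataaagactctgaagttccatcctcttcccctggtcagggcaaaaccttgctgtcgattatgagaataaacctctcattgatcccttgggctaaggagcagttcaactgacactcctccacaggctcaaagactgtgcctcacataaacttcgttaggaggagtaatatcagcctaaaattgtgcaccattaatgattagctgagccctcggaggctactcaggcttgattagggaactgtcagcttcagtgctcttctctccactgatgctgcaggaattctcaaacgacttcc
Acsm3, chr7:119760673-119760972: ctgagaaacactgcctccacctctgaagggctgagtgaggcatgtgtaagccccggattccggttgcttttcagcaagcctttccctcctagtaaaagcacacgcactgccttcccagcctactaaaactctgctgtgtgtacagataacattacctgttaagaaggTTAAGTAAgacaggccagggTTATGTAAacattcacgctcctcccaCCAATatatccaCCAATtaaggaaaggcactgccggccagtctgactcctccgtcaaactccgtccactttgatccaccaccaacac
Acsm5, chr7:119526015-119526314: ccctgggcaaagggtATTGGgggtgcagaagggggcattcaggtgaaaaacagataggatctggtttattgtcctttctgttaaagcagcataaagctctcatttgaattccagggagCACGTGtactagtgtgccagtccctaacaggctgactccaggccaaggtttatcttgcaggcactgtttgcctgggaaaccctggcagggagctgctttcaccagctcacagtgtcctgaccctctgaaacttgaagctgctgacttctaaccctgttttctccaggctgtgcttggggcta

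*Acsm1* held a single hexamer, starting 107 bases before the transcript start, and neither window of *Acsm2* held 1. This hexamer occurred in 16.3% of all 32851 RefSeq windows of the same length, and in 1 of the 11 windows of the members. The direct repeats of it spaced by 1 or by 4 bases, the arrangements known for PPAR and thyroid hormone receptor dimers, occurred in 0 of 11 windows and in 0.0396% and 0.0152% of all windows. The E-box (7.15% of all windows) was found for *Acsm5* only, 132 bases before its start. The D-box core (6.0%) was found for *Acsm3* only, at 83 and 63 bases before its start. The sterol element (1.24%) was found at the second start of *Acsl1* only, and CCAAT, at 37.4% of all windows, in 7 of 11. A match in these letters is a description of the window and says nothing of binding.

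Per kb of gene length the members spanned a wide range of levels, and both genotypes gave the same order by mean. In THRB WT, *Acsm1* was highest with 191 ± 9.96 CPM per kb (SD, n = 18), followed by *Acsl1*, the main long-chain synthetase of liver, with 96.4 ± 20.6, and *Acsl5*, found on mitochondria and endoplasmic reticulum, with 65.4 ± 15.8 CPM per kb. *Acsm5* had 34.7 ± 7.39, *Acss2* 22.7 ± 9.13, *Acsl4*, which prefers arachidonate, 12.1 ± 3.22, *Acsm3* 9.86 ± 2.25 and *Acsl3*, the enzyme of nascent lipid droplets, 7.51 ± 1.87 CPM per kb. *Acss3* with 0.766 ± 0.258 and *Acsm2* with 0.347 ± 0.113 CPM per kb stood far below the others.

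Most neighbours in this order were not set apart by the spread between mice. In THRB WT, the ranges of 18 mice did not overlap only between *Acsm1* and *Acsl1*, 177 against 134 CPM per kb at the nearest, and between *Acsl3* and *Acss3*, 4.21 against 1.39. *Acsl4* was above *Acsm3* in 12 of 18 THRB WT mice and in 12 of 18 THRB KO mice, and *Acsm3* above *Acsl3* in 13 of 18 in each. In THRB KO, *Acsm1* (150 to 197 CPM per kb) still lay above *Acsl1* (66.2 to 140) in every mouse. The order depended on the length used: with the length of the principal transcript, 3897 bases for *Acsl1* in place of the 10483 bases of all its exons and 2931 in place of 10163 for *Acss2*, *Acsl1* came first with 259 CPM per kb, then *Acsm1* with 200 and *Acss2* with 78.6, and 3 of 10 members kept their rank.

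**Figure D1:**
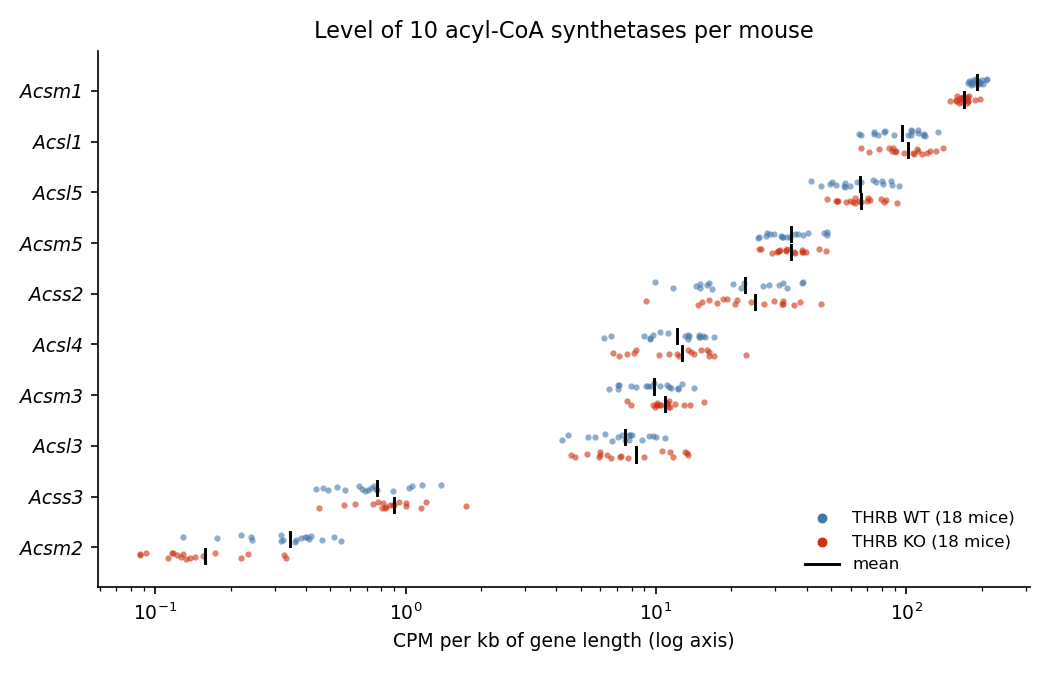
Level of each member in every mouse, as CPM per kb of gene length on a log axis, with THRB WT in blue, THRB KO in red and the mean of 18 mice as a black bar. *Acsm1* lies at the top without overlap with *Acsl1*, and *Acsm2* at the bottom, where 9 of 18 THRB KO mice lie to the left of every THRB WT mouse.

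The main comparison asked which synthetases differ between THRB KO and THRB WT livers when sampling time is taken into account. *Acsm1* and *Acsm2* were lower in THRB KO, and these were the only members of 10 that passed an adjusted p of 0.05. Over all genes, 171 of 17994 passed (0.95%), 80 lower (0.445%) and 91 higher (0.506%) in THRB KO, so 2 of 10 stood above this background, in members whose choice was made with earlier results known. The median log2 fold change was 0.07 over the members and -0.001 over all tested genes.

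*Acsm1* (ENSMUSG00000033533), which activates medium-chain and benzoic acids, fell by a small amount that was seen at nearly all times. At ZT2 the THRB WT mice had 416, 403 and 441 CPM and the THRB KO mice 345, 356 and 349 CPM. At ZT6 the values were 428, 460 and 411 against 380, 363 and 382 CPM, and at ZT14 they were 455, 421 and 396 against 384, 388 and 327 CPM. At these times each THRB KO mouse lay below each THRB WT mouse. At ZT18 the values were 421, 395 and 408 against 363, 381 and 385 CPM, and at ZT22 394, 388 and 386 against 355, 369 and 346 CPM. Only at ZT10 did the groups overlap, with 426, 436 and 424 CPM in THRB WT and 361, 411 and 430 CPM in THRB KO.

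The mean was 417 ± 21.7 CPM in THRB WT and 371 ± 24.9 CPM in THRB KO (SD, n = 18 each), a difference of 11.2% in the fit (log2 fold change -0.17, standard error 0.029, adjusted p = 7.1e-04, quasi-likelihood test of edgeR, adjusted by Benjamini and Hochberg). 15 of 18 THRB KO mice lay below the lowest THRB WT mouse, and 17 of 18 below the THRB WT median. The 3 THRB KO mice lay below the 3 THRB WT mice at 5 of 6 times, which 10 of 17994 genes did at 5 or more times (0.0556%). With 11152 to 16566 counts per library, counting error was small against the difference.

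*Acsm2* (ENSMUSG00000030945), the close neighbour upstream of *Acsm1*, had a far lower level and a larger relative difference. The THRB WT mice had 4.09, 3.11 and 2.85 CPM at ZT2, 2.40, 1.64 and 2.37 at ZT6, and 1.31, 3.01 and 0.963 at ZT10. The THRB KO mice had 1.75, 2.42 and 0.866 CPM at ZT2, 0.957, 1.07 and 2.47 at ZT6, and 0.647, 0.906 and 1.64 at ZT10. In this first part of the cycle the groups overlapped at ZT6 and ZT10. From ZT14 on they did not: THRB WT had 2.70, 2.36 and 1.79 CPM at ZT14, 3.86, 2.95 and 1.81 at ZT18, and 3.05, 2.68 and 3.44 at ZT22. THRB KO had 0.989, 1.29 and 0.873 CPM at ZT14, 1.02, 1.15 and 0.647 at ZT18, and 0.939, 0.833 and 0.681 at ZT22.

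Over all times *Acsm2* averaged 2.58 ± 0.841 CPM in THRB WT and 1.18 ± 0.550 CPM in THRB KO (SD, n = 18 each), 2.19-fold lower (log2 fold change -1.13, standard error 0.17, adjusted p = 1.4e-04, edgeR). All 18 THRB KO mice lay below the THRB WT median, 9 of them below the lowest THRB WT mouse, and 10 THRB WT mice lay above the highest THRB KO mouse. The groups were apart at 4 of 6 times, as for 28 of 17994 genes at 4 or more times (0.156%). Only 45 genes had a log2 fold change of at least this size in either direction. The gene had 20 to 128 counts per library, so that single values carried a visible counting error.

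Both calls were lost when the mice of letter a were left out. Without the 12 mice of letter a, the log2 fold change of *Acsm1* was -0.15 (adjusted p = 0.218) and that of *Acsm2* -0.99 (adjusted p = 0.0917), and 42 genes of all passed in place of 171. Without the mice of letter b or of letter c both members passed, with adjusted p from 3.4e-05 to 0.0318. With sampling times pooled and no term for time, the same 2 members passed (adjusted p = 0.0062 for *Acsm1* and 3.2e-04 for *Acsm2*), among 65 genes of all (0.361%), again not without letter a, and *Acsm1* also not without letter b (0.0847) or c (0.0646).

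**Figure D2:**
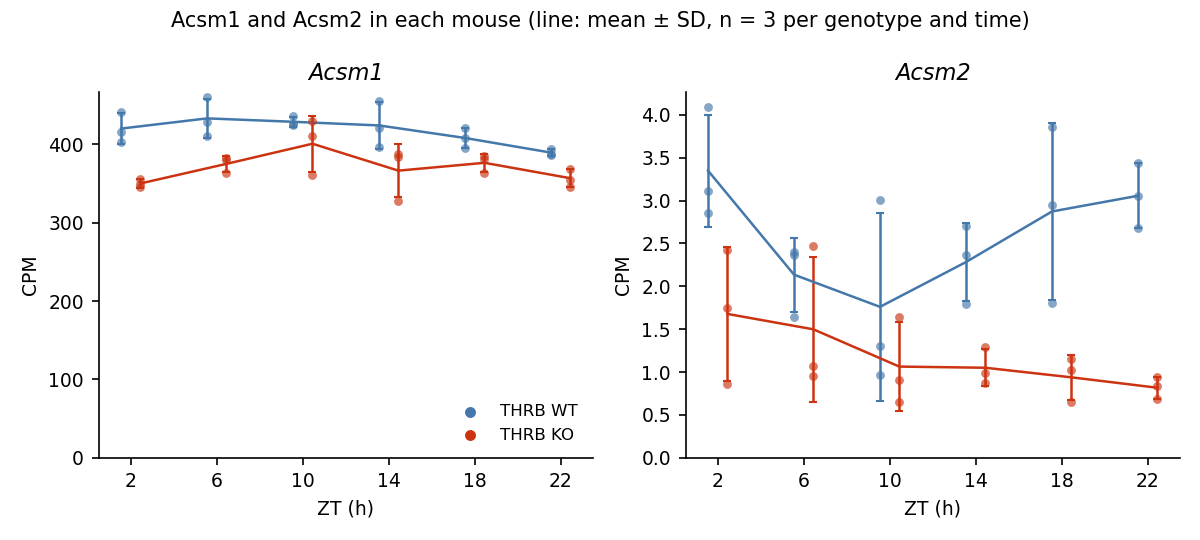
CPM of *Acsm1* (left) and *Acsm2* (right) in each mouse by sampling time, with THRB WT in blue, THRB KO in red and lines for the mean ± SD of 3 mice. *Acsm1* means lie between 390 and 433 CPM in THRB WT and between 350 and 401 CPM in THRB KO, and the *Acsm2* groups are apart at ZT2 and from ZT14 to ZT22.

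The other 8 members did not pass, with adjusted p from 0.368 to 0.984 (edgeR). *Acsm3* was nearest, at 48.7 ± 11.1 CPM in THRB WT and 53.9 ± 9.20 CPM in THRB KO, and was the only further member at an unadjusted p under 0.05 (log2 fold change 0.16, 95% interval 0.02 to 0.30, adjusted p = 0.368, edgeR). That threshold was passed by 12.1% of all tested genes. The *Acsm3* mean was higher in THRB KO at 6 of 6 times, the opposite side to *Acsm1* and *Acsm2* on the same chromosome stretch, and 8.08% of all genes had their THRB KO mean on 1 side at all 6 times. *Acsm5*, the first of the row, had 132 ± 28.1 CPM in THRB WT and 132 ± 22.4 CPM in THRB KO, with a 95% interval of the log2 fold change from -0.09 to 0.10.

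The long-chain members had intervals that reached from a small decrease to a moderate increase. *Acsl1* had 1010 ± 216 CPM in THRB WT and 1062 ± 217 CPM in THRB KO (log2 fold change 0.08, interval -0.02 to 0.18). *Acsl5* gave 0.02 (interval -0.11 to 0.15) and *Acsl4* 0.06 (interval -0.10 to 0.21). *Acsl3*, with 32.7 ± 8.14 against 36.4 ± 13.5 CPM, gave 0.12 (interval -0.11 to 0.35). Of the short-chain members, *Acss2* gave 0.11 (interval -0.14 to 0.36) and *Acss3* 0.22 (interval -0.05 to 0.49, 5.51 ± 1.85 against 6.46 ± 2.03 CPM). Each of these 6 intervals includes 0.

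**Figure D3:**
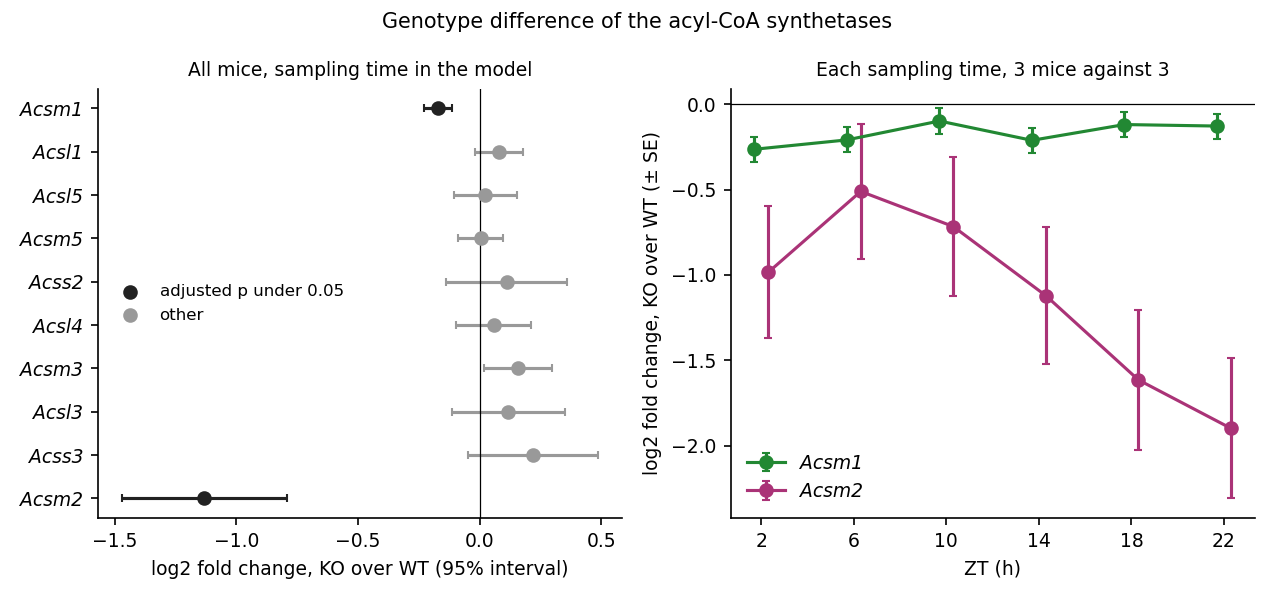
Left, log2 fold change of THRB KO over THRB WT with its 95% interval for all members, in order of level, with black for an adjusted p under 0.05. Right, the same difference with its standard error at each sampling time for *Acsm1*, between -0.26 and -0.10, and for *Acsm2*, between -0.51 at ZT6 and -1.90 at ZT22.

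The comparison at single times asked whether the genotype difference belongs to a part of the day. With 3 mice against 3, 0 members passed an adjusted p of 0.05 at any time by edgeR, against 5 genes of all at ZT2 (0.0278%), 2 at ZT6 (0.0111%), 3 at ZT10 (0.0167%), 3 at ZT14 (0.0167%), 4 at ZT18 (0.0222%) and 4 at ZT22 (0.0222%). At an unadjusted p under 0.05, 7 of 60 combinations of member and time passed, where 4.89% of all 107964 combinations of gene and time did: *Acsm1* at ZT2, ZT6 and ZT14, and *Acsm2* at ZT2, ZT14, ZT18 and ZT22. For *Acsm2* the log2 fold change was -0.98 at ZT2, -0.51 at ZT6, -0.72 at ZT10, -1.12 at ZT14, -1.61 at ZT18 and -1.90 at ZT22, with standard errors from 0.39 to 0.41. At ZT22 the THRB KO level was 26.8% of that of THRB WT (adjusted p = 0.133, edgeR).

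The increase in this difference towards the end of the night was not shown to be more than the spread between mice. For the interaction of genotype and time, 0 of 10 members had an unadjusted p under 0.05 by edgeR or by DESeq2. Over all genes, 484 (2.69%) had an unadjusted p under 0.05 for the interaction in edgeR, 609 in DESeq2, and 0 (0%) passed the adjusted threshold in either. For *Acsm1* the 6 log2 fold changes lay between -0.26 at ZT2 and -0.10 at ZT10.

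The next comparison asked which members vary over the day. In THRB WT livers 6 of 10 passed the test for any difference between times (*Acsm3*, *Acsm5*, *Acsl1*, *Acsl4*, *Acsl5* and *Acss2*), and in THRB KO livers also 6 (*Acsm5*, *Acsl1*, *Acsl3*, *Acsl4*, *Acsl5* and *Acss2*). The background was 26.4% of genes in THRB WT, 24.9% in THRB KO and 18.9% in both, against 5 of 10 members in both. *Acsm1* had the smallest relative range of the 10: its highest mean over times was 1.11-fold its lowest in THRB WT and 1.14-fold in THRB KO, with adjusted p for time of 0.531 and 0.308 (edgeR). *Acsm2* (adjusted p = 0.334 and 0.251) and *Acss3* (0.440 and 0.263) did not pass either.

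*Acsl1* and *Acsl4* were high in the dark phase, when mice feed. At ZT10, *Acsl1* had 679, 807 and 776 CPM in THRB WT and 694, 941 and 746 CPM in THRB KO. At ZT18 it had 1100, 1410 and 1170 CPM in THRB WT and 1270, 1470 and 1130 CPM in THRB KO. The 2 times did not overlap in either genotype, and the mean was 1.62-fold higher at ZT18 in each (adjusted p = 7.5e-05 for THRB WT and 4.6e-04 for THRB KO, edgeR). *Acsl4* rose from 33.6, 35.7 and 51.2 CPM at ZT6 to 81.2, 83.5 and 80.4 CPM at ZT14 in THRB WT, and from 36.3, 45.2 and 44.4 to 87.9, 75.0 and 124 CPM in THRB KO, a 2.04-fold and a 2.28-fold difference of means. The THRB KO mouse with 124 CPM stood above all others.

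*Acsl5* and *Acss2* were high at the end of the night and low around the change from light to dark. *Acss2* had 339, 394 and 272 CPM at ZT22 and 162, 147 and 119 CPM at ZT14 in THRB WT, 2.35-fold apart. In THRB KO it had 328, 383 and 463 CPM at ZT22 and 211, 155 and 93.1 CPM at ZT14, 2.56-fold apart. Mice of 1 group could differ widely in *Acss2*, with 152, 389 and 327 CPM at ZT2 and 287, 223 and 101 CPM at ZT10 in THRB WT, and its time call was close to the threshold there (adjusted p = 0.0441, edgeR; 0.0096 in THRB KO). *Acsl5* had 391, 425 and 358 CPM at ZT22 and 245, 241 and 222 CPM at ZT14 in THRB WT, a 1.66-fold difference, and 340, 387 and 447 against 291, 235 and 260 CPM at ZT10 in THRB KO.

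The mitochondrial members *Acsm5* and *Acsm3* were high late in the light phase. *Acsm5* had 140, 184 and 184 CPM at ZT10 and 98.5, 121 and 106 CPM at ZT22 in THRB WT, and 147, 171 and 182 CPM at ZT10 and 98.4, 116 and 118 CPM at ZT18 in THRB KO (adjusted p for time of 1.7e-04 and 0.0018, edgeR). *Acsm3* averaged 60.6 ± 9.27 CPM at ZT10 and 37.3 ± 6.77 CPM at ZT2 in THRB WT (adjusted p = 0.0328) and 62.1 ± 12.8 and 45.6 ± 6.71 CPM in THRB KO (adjusted p = 0.274). It passed in THRB WT and not in THRB KO, but a difference in time course between genotypes was not shown. The same held in reverse for *Acsl3*, which averaged 54.9 ± 4.41 CPM at ZT18 and 23.0 ± 3.01 CPM at ZT6 in THRB KO (2.39-fold, adjusted p = 0.0292) and 37.2 ± 5.71 and 24.1 ± 8.98 CPM at ZT22 and ZT6 in THRB WT (adjusted p = 0.485), again with no interaction at an unadjusted p under 0.05.

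Calls over time also changed with the mice left out. Without the 6 mice of letter c in each genotype, *Acsl1* and *Acsl4* were the members that still passed, in THRB WT and in THRB KO. Without letter a, *Acsm3* (0.151) and *Acsl4* (0.0681) no longer passed in THRB WT, and *Acsl1* (0.0606) and *Acsl3* (0.113) no longer in THRB KO. Without letter b, *Acsl5* (0.189) and *Acss2* (0.537) were lost in THRB WT, and *Acsl3* (0.0903), *Acsl5* (0.411) and *Acss2* (0.245) in THRB KO. Over all genes the number called fell to between 2232 and 2746 in THRB WT, from 4748.

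**Figure D4:**
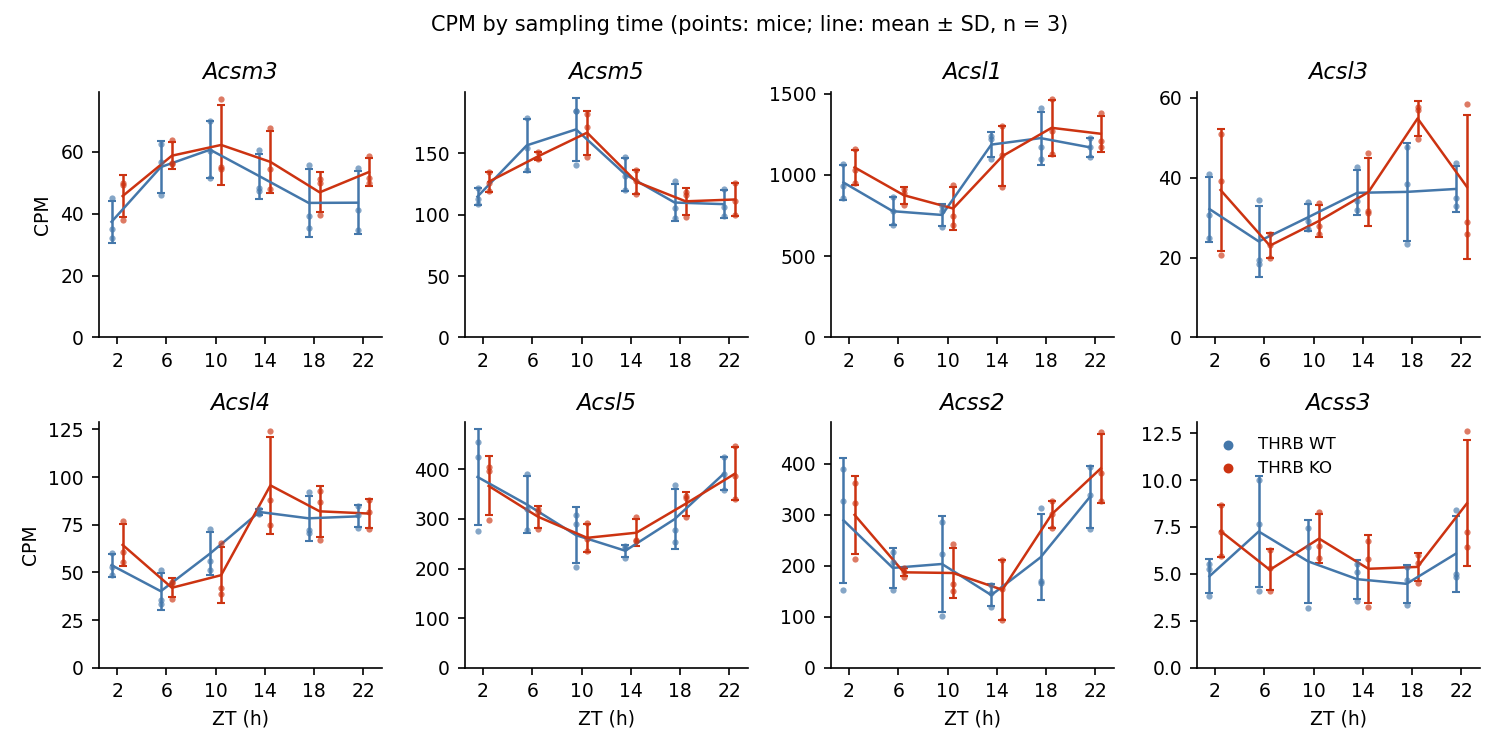
CPM of the other 8 members by sampling time, with a point for each mouse, THRB WT in blue, THRB KO in red and lines for the mean ± SD of 3 mice. *Acsm5* has its highest mean at ZT10, *Acsl1* at ZT18, *Acsl4* at ZT14 and *Acss2* and *Acsl5* at ZT22, in both genotypes.

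To compare the shape of the rhythms, a 24 h cosine was fitted to variance-stabilized (VST, a log2-like scale) counts of both genotypes. The 5 members with p under 0.01 for the 24 h terms in both genotypes were *Acsm5*, *Acsl1*, *Acsl4*, *Acsl5* and *Acss2*, a state shared by 21.8% of all genes. *Acsm5* peaked at ZT 9.01 ± 0.55 h (SE) in THRB WT and 8.34 ± 0.66 h in THRB KO. *Acsl4* peaked at 17.6 ± 0.72 and 18.4 ± 0.66 h, and *Acsl1* at 18.9 ± 0.55 and 19.9 ± 0.60 h. *Acss2* peaked at 23.9 ± 1.10 and 22.6 ± 0.86 h and *Acsl5* at 0.667 ± 0.71 and 23.1 ± 0.88 h. The peaks thus fell into late day, mid night and the hours around lights on.

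Differences of peak time between genotypes were within their error. Peak time differed at p under 0.05 for 0 of these 5 members, against 4.49% of the 3916 genes rhythmic in both genotypes. *Acsl1* and *Acsl4* were later in THRB KO by 0.97 h (95% interval -0.69 to 2.63) and 0.84 h (-1.16 to 2.84). *Acsm5*, *Acss2* and *Acsl5* differed by -0.67 h (-2.42 to 1.08), -1.31 h (-4.16 to 1.53) and -1.53 h (-3.83 to 0.77). Amplitude differed at p under 0.05 for 0 of 10 members, against 1.79% of all genes. The largest fitted amplitudes were those of *Acss2*, 0.51 ± 0.15 (SE) in THRB WT and 0.65 ± 0.15 in THRB KO, and of *Acsl4*, 0.49 ± 0.09 and 0.53 ± 0.09.

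**Figure D5:**
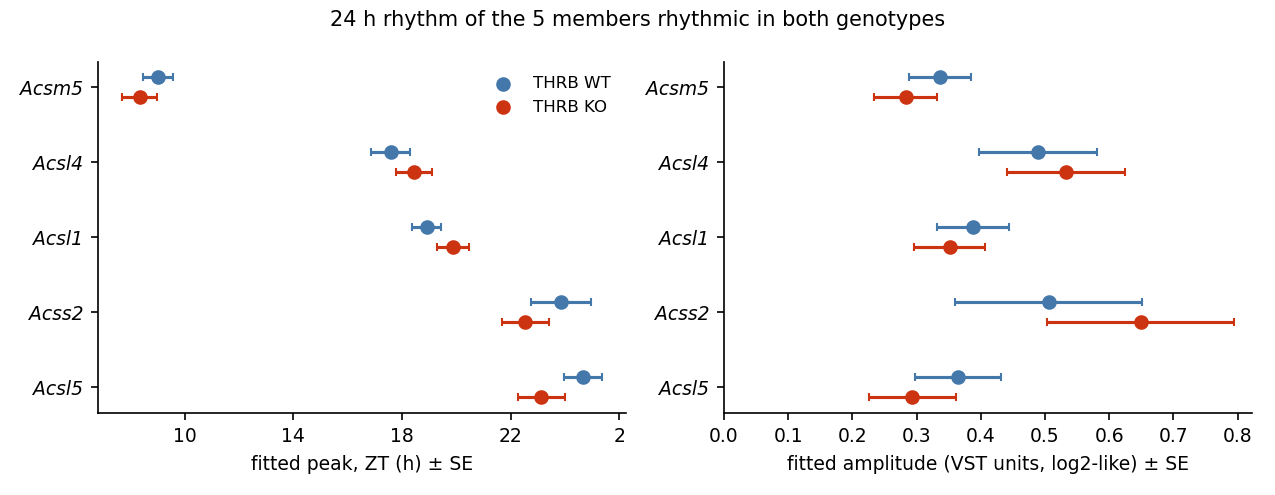
Fitted peak time (left, ZT in hours) and amplitude (right, VST units) with standard errors for the 5 members rhythmic in both genotypes, THRB WT in blue and THRB KO in red. Peaks lie near ZT 9 for *Acsm5*, between 17.6 and 19.9 for *Acsl4* and *Acsl1*, and between 22.6 and 0.667 for *Acss2* and *Acsl5*.

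Mice of the same genotype and time also differed from each other, and some members did so together. Over the 36 libraries, with the mean of each group of 3 subtracted from log2 CPM, 5 of the 45 pairs of members passed an adjusted p of 0.05, and all 5 were positive. The closest pair was *Acsl5* and *Acss2*, both known targets of the lipogenic factor SREBP, with Pearson r = 0.90 and Spearman rho = 0.90 (p = 1e-05 for each, the smallest that 100000 permutations within groups give, adjusted p = 4.5e-04 over 45 pairs). Without the 2 mice farthest from the median of *Acsl5*, r was 0.86. With each letter left out in turn, r was 0.81 (a), 0.94 (b) and 0.94 (c), with adjusted permutation p of 0.359, 0.0084 and 0.0225. *Acsm3* and *Acsm5* followed with r = 0.68 and rho = 0.67 (permutation p = 5.4e-04 and 6.1e-04, adjusted p = 0.0121 and 0.0137), and r = 0.61 without the 2 farthest mice.

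*Acss3* made up the other 3 pairs, with *Acss2* (r = 0.63, adjusted permutation p = 0.0211), *Acsm3* (0.58, 0.0211) and *Acsl5* (0.58, 0.0312). Of the 3, only that with *Acsm3* also passed by rho (0.57, adjusted permutation p = 0.0439). Without the mice of letter a 0 pairs passed. Without letter b, *Acsl5* and *Acss2* passed with each other and each with *Acss3* (adjusted permutation p = 0.0084 for each). Without letter c 5 pairs passed, but not the same 5. Among them were *Acsm3* with *Acsm5* (0.0365) and with *Acss3* (0.0225), and *Acsl5* with *Acss2* (0.0225). The rest were pairs that did not pass over all 36 libraries. *Acsm1* and *Acsm2*, the pair lower in THRB KO, had r = 0.33 within groups (adjusted permutation p = 0.296). All 10 values of a mouse come from 1 library, so the points of a pair share its depth and composition.

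Other genes that followed the members over all 36 libraries were named as the 3 with the highest Pearson r of log2 CPM among 11917 genes with a mean of at least 50 counts. These values include the effects of genotype and time and are a description. For *Acss2* they were *Slc44a1*, a choline transporter (r = 0.92), *Aqp8*, a water channel (0.91), and *Acsl5* (0.90), and for *Acsl5* they were *Acss2*, *Slc44a1* (0.90) and *Tfpi2* (0.89). For *Acsl3* they were *Insig1*, which retains SREBP in the endoplasmic reticulum (0.81), *Fasn*, the fatty acid synthase (0.80), and *Zmiz1* (0.78). *Acsm5* was followed by *Adcy6*, *Uri1* and *Actn1* (0.90 to 0.91), *Acsm3* by *Phactr4*, *Mia2* and *Gak* (0.87 to 0.89), *Acsl1* by *Pdlim1*, *Fam222b* and *Bpnt1* (0.86 to 0.89), and *Acsl4* by *Abce1*, *Pus7* and *Crybg3* (0.87 to 0.90).

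The members that were lower in THRB KO had less close partners. *Acsm1* was most like *Cd276* (0.80), *Gm3839* (0.79) and *Snhg11* (0.77), and *Acsm2* most like *Cspg5* (0.70), *Rpl15* (0.69) and *Gm3839* (0.68). *Gm3839* was thus on both lists, and all 5 were themselves lower in THRB KO. Their log2 fold changes were -0.81 for *Cd276*, -2.97 for *Gm3839*, -0.95 for *Snhg11*, -0.93 for *Cspg5* and -0.21 for *Rpl15* (adjusted p from 7.1e-11 to 0.0160, edgeR). As r was taken across both genotypes, the choice of partners favoured genes that were also lower in THRB KO. *Rpl15* lies 0.23 Mb and *Gm3839* 6.3 Mb from *Thrb* on chromosome 14, the stretch around the altered allele, whereas *Cd276* and *Cspg5* are on chromosome 9, *Snhg11* is on chromosome 2 and the *Acsm* row is on chromosome 7. The name of the line includes 129S1, and the mice were bred on a C57Bl/6NCrl background. The part of strain differences in these levels was not tested. *Acss3* was followed by *Abat* (0.82), *Mthfd1* (0.80) and *Acad9* (0.79), 3 genes of mitochondrial or folate metabolism.

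Few genes around the synthetases in the pathway passed the adjusted threshold in the test that called *Acsm1* and *Acsm2*, where 0.95% of all genes passed. Of 15 other acyl-CoA synthetases, 13 were tested and 0 passed, 5 at an unadjusted p under 0.05 (2 higher, 3 lower, where 12.1% of all genes passed), with a median log2 fold change of -0.02. The largest differences among them were in genes at low level, *Acsl6* (-0.40), *Acsbg1* (-0.34) and *Slc27a3* (-0.31). Of 5 genes that conjugate acyl-CoA to glycine or taurine, 4 were tested and 0 passed: *Keg1* gave -0.29 (270 ± 64.0 against 218 ± 37.8 CPM, adjusted p = 0.154), *Baat*, which conjugates bile acids, 0.11, and *Gm4952* -0.10.

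Among 12 thioesterases, which split acyl-CoA again, 11 were tested and *Acot11* passed, with 6.38 ± 3.33 CPM in THRB WT and 13.03 ± 7.32 CPM in THRB KO (SD, n = 18 each; log2 fold change 0.998, standard error 0.20, adjusted p = 0.0071, edgeR). Of all tested genes 0.95% passed. At an unadjusted p under 0.05 in edgeR, 3 of the 11 were higher and 1 was lower in THRB KO, where 12.1% of all genes passed. The median of the 11 was 0.05. *Acot11* passed without the mice of letter c and not without those of letter a or b. DESeq2 called *Acot12* in addition (log2 fold change 0.14, adjusted p = 0.0304), among 306 of 15544 genes.

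Of 13 genes for uptake and oxidation of acyl-CoA in mitochondria, 0 passed in edgeR, 5 had an unadjusted p under 0.05 (12.1% of all genes did), all higher in THRB KO, and the median was 0.07. *Cpt1a*, the gate of long-chain acyl-CoA into mitochondria, gave 0.21 (235 ± 78.7 against 273 ± 96.9 CPM, adjusted p = 0.109), *Etfdh* 0.14 (0.0981) and *Hadh* 0.14 (0.0813). DESeq2 called *Hadh* (adjusted p = 0.034) and *Etfdh* (0.0493), among 306 of 15544 genes.

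Genes that use acyl-CoA for glycerolipid synthesis, lipogenic SREBP targets and sterol SREBP targets gave 0 calls by edgeR and by DESeq2. Their medians were 0.07, 0.06 and 0.09. At an unadjusted p under 0.05 in edgeR, 1 of 9, 1 of 10 and 0 of 10 tested genes passed, where 12.1% of all genes did. Among the largest differences in these lists were those of *Lpin1* (0.19), *Gpam* (0.16) and *Mogat1* (0.14), of *Me1* (0.34, adjusted p = 0.215), *Pnpla3* (0.28) and *Thrsp* (-0.24), and, among the sterol targets, of *Idi1* (0.26) and *Fdps* (-0.18). Over the day, 4 of 10 lipogenic targets passed in THRB WT and 8 of 10 in THRB KO, and 5 of 10 sterol targets in each. Of all genes, 26.4% passed in THRB WT and 24.9% in THRB KO. The difference between these counts was not tested.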

How the data were processed

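Livers of 36 mice were sequenced, 3 per genotype and sampling time. Per the labels and the study's methods, the authors removed low-quality reads, mapped the remaining pairs to GRCm38 (mm10) by HISAT2 and summed them over genes by featureCounts. The counts are deposited as whole numbers, without normalization or filter, beside a gene length for each gene. Versions, annotation release and strand setting are not given in the sources used here. The deposited lengths equalled the merged exon lengths of GENCODE M21 for all 10 members. Libraries were poly-A selected and not directional, so that reads of overlapping genes on opposite strands cannot be told apart by strand. Whether such reads were left out or counted for a gene is not given either.

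Genes whose counts summed to 100 or more were kept (17994 of 54532), scaled by TMM and tested with edgeR 4.0.16 (glmQLFit, glmQLFTest, R 4.3.3, limma 3.58.1), with Benjamini-Hochberg adjustment over all tested genes and a threshold of 0.05. The models held genotype and time, genotype alone, or 12 group means for contrasts between times, within times and for the interaction. Intervals (95%) of log2 fold changes are normal ones from the standard error. Log2 CPM used a prior count of 2. Rhythms were compared on vst values (DESeq2 1.42.0, blind = FALSE) by a joint cosinor with a period of 24 h and 30 residual degrees of freedom, unadjusted p under 0.05, and peak times only for genes with p under 0.01 for sine and cosine terms in both genotypes. Correlations between members used 100000 permutations within groups. Within a time, 3 mice against 3 cannot give an exact permutation p below 0.1. Scripts were tested on simulated counts. Python 3.11.15 with scipy 1.17.1, numpy 2.4.6 and biopython 1.88 served for correlations and sequences. RefSeq windows were searched for motifs on both strands.

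Alternatives were DESeq2's likelihood ratio test, its size factors, other count filters, blocks for mice, log2 CPM, adjusted cosinor p-values, and fits without each letter in turn. Principal transcript lengths, and fits without each letter at single times and in correlations, and VST values in correlations, were alternatives added after the data were seen. Named genes are the 10 members, in each other list the genes past the adjusted threshold or otherwise the 3 with the largest absolute log2 fold change, and the 3 genes most like each member. Genes named as overlapping a member, for their position, or as called under an alternative were named outside this rule. Members and lists were chosen with earlier results of these data known. Replicates of 1 group differed by 29.7 to 123 in chi-square per gene, so no 2 were the same library. The value of 1 gene that this rule names is not reported here. Proteins were not used here, and 0 columns of samples were left unused.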

Additional observations from a re-analysis of the deposited data

How the results depend on the processing

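Size factors, count filters and DESeq2 left 2 members called for genotype in both models. Fits without each letter in turn gave 0 to 2 members for genotype with time (log2 fold change -0.0279 to 0.027 for *Acsm5* and -0.0111 to 0.0702 for *Acsl5*), 0 to 1 with times pooled (-0.0357 to 0.0205 for *Acsm5* and -0.0242 to 0.0623 for *Acsl5*), 2 to 4 for time in THRB WT, 2 to 4 for time in THRB KO, 0 to 1 thioesterases and 0 to 5 correlated pairs. In the pooled model *Acsm5*, at -0.002, changed sign without the count filter (9.22e-05). Over all genes, DESeq2 called 306 for genotype with time in place of 171, fits without a letter 42 to 85, the pooled model 16 to 25 without a letter in place of 65, and time in THRB KO 1955 to 2373 in place of 4479. DESeq2 called 2 thioesterases and 2 genes of mitochondrial acyl-CoA use in place of 1 and 0. By CPM without division by length 6 members kept their rank, and with principal transcript lengths 3. Low counts limit *Acsm2* and *Acss3*.

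The letters of the mice are not stated to pair them. Same-letter deviations of the 2 genotypes correlated by -0.038 to 0.225 (median 0.102, above 0.1 in 9 of 18 pairs). The own letter was the best match among the 3 letters in 15 of 18. The main tests and the permutations treated the mice as unpaired and held no term for letter. Anything shared by letter thus stayed in the spread between mice and in the correlations between members. Its part in them was not tested. With a replicate block of time and letter, 387 genes passed in place of 171, and the same count of 2 members (adjusted p = 0.0011 for *Acsm1* and 2.7e-04 for *Acsm2*, edgeR). So did 2 thioesterases and 3 genes of mitochondrial acyl-CoA use. The log2 fold change of *Acsm5* was 0.00769. This block contains sampling time, so it has no version with times pooled. With letter as an additive replicate block, 5 members passed for time in THRB WT, without *Acss2* (adjusted p = 0.0575), and 7 in THRB KO, with *Acsm3* (0.0172).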
